A study of Mus musculus with 2 samples.

Results

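The epidermal differentiation complex is a cluster of genes on mouse chromosome 3 that encode the proteins of the outer epidermis. Its members were taken by name: genes whose name in the scanner files starts with Sprr, Lce or S100a, or is Flg, Lor, Ivl, Rptn, Tchh, Tchhl1, Crnn, Hrnr, Crct1 or Kprp. This gave 41 genes with 46 probes, of 21337 named genes and 41174 probes on the array. They comprised 12 Sprr genes, 7 Lce genes, 13 S100a genes, 5 genes of the fused type (Flg, Rptn, Tchh, Tchhl1 and Hrnr) and 4 others (Lor, Ivl, Crct1 and Kprp). No probe carried the name Crnn. The expression data came from 2 two-colour Agilent arrays. Each set total RNA of wild type mouse keratinocytes, the main cells of the epidermis, in the green Cy3 channel against total RNA of keratinocytes titled CHUK-LoxP mutant and described as Chuk-deleted, in the red Cy5 channel. The labels name neither strain, age, culture stage nor the Cre that acts on the loxP sites, and no agent is named for either group. Chuk encodes IKK-alpha, a kinase known for its part in epidermal differentiation. The arrays are 2 replicates of 1 comparison. Nothing says that their RNAs came from different cultures or mice, so a p-value here reflects the spread between 2 arrays alone, and that spread may be technical. The dyes were not swapped on either array, so for each gene a difference between dyes and one between genotypes cannot be told apart.

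Keratinocytes that leave the basal layer build a cornified envelope, a sheet of cross-linked proteins that replaces the plasma membrane as the cell dies and flattens. Loricrin and involucrin are main parts of that sheet, small proline-rich (Sprr) proteins bridge its components, and late cornified envelope (Lce) proteins join it last. The fused-type proteins, such as filaggrin and trichohyalin, bind and pack keratin filaments, and the S100a proteins are small calcium-binding proteins, several of which are also made by cells outside the epidermis.

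The targeted gene went against its label. Chuk was measured by a pair of probes, and the log2 ratio of Cy5 over Cy3 was 0.73 and 0.75 on arrays 1 and 2 for the one and 0.93 and 0.78 for the other. Both were therefore higher in the channel labelled Chuk-deleted, by 1.67-fold (adjusted p = 0.000104) and 1.81-fold (adjusted p = 0.000105), and where the probes lie relative to the deleted part is not given in the sources used here. Every direction below is accordingly that of the channel labelled Chuk-deleted, and "rose" and "fell" mean higher or lower in that channel at an adjusted p under 0.05 in a limma fit over all probes. All 12 keratinocyte markers looked at, Krt5, Krt14 and Trp63 among them, were well above background in the wild type channel, and all but Krt1 in the other, with 6 higher and 6 lower (8 and 1 under median centring, 2 and 8 under spike-in scaling). Median spot brightness was 95.2 to 109.9 in Cy3 and 171.5 to 218 in Cy5, and 53.2% to 64.5% of probes stood well above background in a channel. Spike-in scaling, named beside many values below, lowers each array's loess ratios by the mean of its spike-in control spots, 0.76 on average for every gene, so that small rises must turn negative. Under it 91% of all genes fell and 2.04% rose, and the first Chuk probe is at -0.02 (adjusted p = 0.870). Median centring in place of loess makes 7.25% of all genes lower and 74.7% higher. Under these 2 scalings the limma call followed the size of the mean and hardly a gene's own spread between arrays. Under median centring Sprr2h (-1.48, SD 1.63 under loess) had an adjusted p of 1.9e-40. Lce1h (1.49, SD 0.12 under loess) had 1.5e-40.

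Of the 41 members, 37 could be tested, which required a probe that both arrays showed well above background in 1 channel or both. Sprr3, S100a5, Hrnr and Tchhl1 were too dim. Of the 37, 26 fell, 8 rose and 3 did not pass the test. With median centring in place of loess 23 fell and 13 rose, against the 7.25% and 74.7% of all genes. Under spike-in scaling 34 of 37 fell, a share close to the 91% of all genes, and S100a4 and S100a8 rose. Over all 13758 genes tested, 61.2% passed the test, of which the falling genes were 28.3% and the rising genes 33% of all tested. Counts of called genes below are to be set against these shares. The median log2 ratio was -0.91 over the tested members (-0.69 on array 1 and -1.15 on array 2) and 0.02 over all genes. By size alone, 17 members were at least 2-fold lower on both arrays, against 3.21% of all genes, and only S100a4 was at least 2-fold higher on both, against 1.5% of all genes. Outside the S100a genes, 22 of the 25 tested members fell, Lce1h alone rose, and Sprr2a and Sprr2b did not pass. Some members passed the brightness filter through the Cy3 channel alone, which selects for a lower ratio. Among the 33 that stood above background in both channels on both arrays, 22 fell and 8 rose. Total RNA cannot tell fewer differentiated cells from less of these RNAs in each cell.

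**Figure D1:**
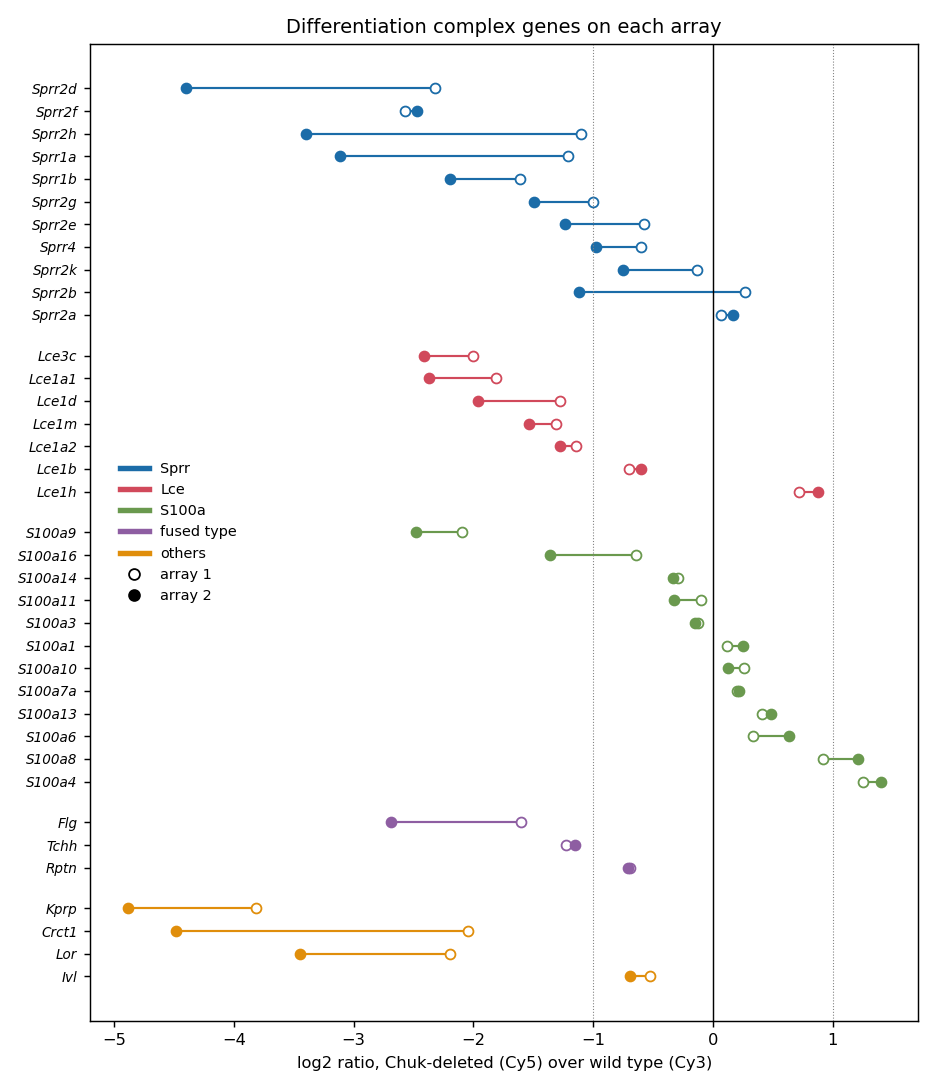
Log2 ratio of Cy5 (labelled Chuk-deleted) over Cy3 (wild type) of each of the 37 tested genes, open circles for array 1 and filled circles for array 2, coloured by subfamily; dotted lines mark 2-fold. Most Sprr, Lce, fused-type and other genes lie left of 0 on both arrays, while 7 of 12 S100a genes lie right of it, of which S100a4 and S100a8 do so under spike-in scaling too.

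Among the genes outside the large families, all 4 fell. Kprp, which encodes a keratinocyte proline-rich protein, had log2 ratios of -3.81 and -4.89, a mean of -4.35 ± 0.76 (SD, n = 2) or 20.4-fold (adjusted p = 4.8e-05). Its log2 brightness was 12.59 and 12.35 in the wild type channel and 8.78 and 7.46 in the other. Crct1, a cysteine-rich gene that lies among the Lce genes, gave -2.05 and -4.49, a mean of -3.27 ± 1.73 and 9.63-fold (adjusted p = 0.00184). The arrays differed widely in how far Crct1 fell, and not in whether it did.

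Lor, which encodes loricrin, had log2 ratios of -2.20 and -3.45, a mean of -2.82 ± 0.89 or 7.08-fold (adjusted p = 0.000254). Its brightness was 13.37 and 12.50 in the wild type channel and 11.18 and 9.05 in the other. Ivl, which encodes involucrin, the early scaffold of the envelope, fell by less, with -0.52 and -0.70 (mean -0.61 ± 0.12, 1.53-fold, adjusted p = 0.000371). Its brightness was low, at 7.98 and 7.42 in the wild type channel, and the size of its fall depends on the processing. With the software's processed signals Ivl is at -1.36 and Lor at -2.91. The 250 bases before the Lor start, at chr3:92083143-92083392 on the minus strand of GRCm38.p6, are shown because they hold a short word that many of the fallen members share. Capitals mark the AP-1 word TGANTCA, which is its own reverse complement, and TATAAA (sequences from RefSeq, 5′ to 3′).
Lor: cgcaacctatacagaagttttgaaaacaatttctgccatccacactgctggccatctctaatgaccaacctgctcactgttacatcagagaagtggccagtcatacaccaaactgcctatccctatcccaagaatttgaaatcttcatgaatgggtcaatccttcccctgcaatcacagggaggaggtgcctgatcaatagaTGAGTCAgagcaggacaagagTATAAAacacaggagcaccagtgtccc
In Lor the AP-1 word begins at -48 and TATAAA at -27, counted back from the start.

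The Sprr genes encode cross-bridging proteins of the envelope, and Sprr1 and Sprr2 forms are known for rising in stressed or wounded skin. Of the 11 tested, 9 fell, none rose and 2 did not pass, and the median log2 ratio was -1.25 (array 1 at -1.0, array 2 at -1.50). The 9 lower genes ranged from Sprr2d to Sprr2k, and 6 of them were at least 2-fold lower on both arrays.

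Sprr2d had log2 ratios of -2.32 and -4.40, a mean of -3.36 ± 1.47 or 10.3-fold (adjusted p = 0.000861). Its brightness was 14.06 and 13.75 in the wild type channel and 11.73 and 9.35 in the other, and array 2 carried the larger gap. Sprr2f gave -2.57 and -2.48 (mean -2.52 ± 0.07, 5.75-fold, adjusted p = 9.4e-06), although its Cy5 signal stood above background on 1 array only. The arrays nearly coincided for Sprr2f, but its Cy5 brightness was only 6.61 and 6.06, so the size of its fall is uncertain. With the software's processed signals Sprr2f is at -4.73. Sprr2h gave -1.10 and -3.40, a mean of -2.25 ± 1.63 (adjusted p = 0.00663), a call that was lost with the software's processed signals (adjusted p = 0.0553). Both Sprr1 genes, the cornifins, fell. Sprr1a was at -1.21 and -3.11 (mean -2.16 ± 1.34, adjusted p = 0.00362). Sprr1b was at -1.61 and -2.19 (mean -1.90 ± 0.41, adjusted p = 9.3e-05). Sprr2g, which RefSeq lists as a transcribed pseudogene, was at -1.0 and -1.50 (mean -1.25 ± 0.35, adjusted p = 0.000242). Every one of these 6 was lower on both arrays, with the larger fall on array 2 in all but Sprr2f.

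The smaller Sprr changes were spread widely. Sprr2e (-0.91 ± 0.47), Sprr4 (-0.79 ± 0.26) and Sprr2k (-0.44 ± 0.44, which turns to 0.16 with median centring in place of loess) passed the test. With the software's processed signals Sprr2k no longer passed (adjusted p = 0.118), and the dim Sprr4 is at -2.64. Sprr2b did not pass, at 0.27 on array 1 and -1.12 on array 2 (adjusted p = 0.237), where the arrays pointed opposite ways. Sprr2a had 2 probes that disagreed. Its brighter probe was at 0.07 and 0.17 (mean 0.12 ± 0.07, adjusted p = 0.110), and its other probe at -0.40 and -0.68 (mean -0.54 ± 0.19, adjusted p = 0.00133). The brighter probe turns to -0.64 under spike-in scaling. Sprr2 genes are close copies of one another, as are the Lce1 genes, and how far a probe also binds its paralogs was not tested, so single Sprr2 and Lce1 values are uncertain in their gene.

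Sequences upstream of 3 Sprr2 genes are shown because Sprr2d and Sprr2e are near copies there that moved by different amounts, while Sprr2a, which did not pass the test with its brighter probe, is unlike both. All lie on the plus strand of GRCm38.p6, with Sprr2d at chr3:92338890-92339139, Sprr2e at chr3:92351893-92352142 and Sprr2a, listed in RefSeq as Sprr2a1, at chr3:92215585-92215834. Capitals mark the same words as in Lor.
Sprr2d: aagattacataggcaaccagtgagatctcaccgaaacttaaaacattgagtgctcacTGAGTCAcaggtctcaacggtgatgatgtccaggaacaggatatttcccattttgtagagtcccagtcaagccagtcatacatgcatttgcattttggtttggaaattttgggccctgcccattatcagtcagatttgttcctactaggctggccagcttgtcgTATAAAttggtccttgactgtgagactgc
Sprr2e: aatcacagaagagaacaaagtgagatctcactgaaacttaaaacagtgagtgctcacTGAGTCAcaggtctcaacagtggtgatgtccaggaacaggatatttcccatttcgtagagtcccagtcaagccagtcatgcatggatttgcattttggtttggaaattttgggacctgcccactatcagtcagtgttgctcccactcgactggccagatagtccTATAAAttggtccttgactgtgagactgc
Sprr2a1: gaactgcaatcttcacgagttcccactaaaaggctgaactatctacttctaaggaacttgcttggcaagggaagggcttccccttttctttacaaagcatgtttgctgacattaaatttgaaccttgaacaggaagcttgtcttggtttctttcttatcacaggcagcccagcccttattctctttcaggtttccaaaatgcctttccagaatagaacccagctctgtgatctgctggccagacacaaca
Sprr2d and Sprr2e were identical in 225 of 252 aligned columns (89.3%), yet their mean log2 ratios were -3.36 and -0.91. Sprr2d and Sprr2a1 shared 52.8% of aligned columns, and neither capital word occurs in the Sprr2a1 window. Sprr2b, Sprr2d, Sprr2e, Sprr2f, Sprr2h and Sprr2k all had TATAAA at -29 and the AP-1 word between -198 and -193.

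The Lce genes encode proteins added to the envelope in the last step of cornification. In the files most carry an older name, Sprrl, and are named here as in RefSeq. Of the 7 members, 6 fell and 1 rose, and the median log2 ratio was -1.42 (array 1 at -1.27, array 2 at -1.54), and 5 were at least 2-fold lower on both arrays. Lce3c was the lowest, at -2.0 and -2.41 (mean -2.21 ± 0.29, 4.61-fold, adjusted p = 3.3e-05), and its other probe fell too (-1.59 ± 0.52). Lce1a1 was at -1.81 and -2.37 (mean -2.09 ± 0.40, adjusted p = 6.8e-05). Lce1d was at -1.27 and -1.96, a mean of -1.62 ± 0.49 or 3.07-fold (adjusted p = 0.000258). All of these were lower on both arrays by a factor of at least 2. Lce1m, named Lce5a in the files, gave -1.31 and -1.54 (mean -1.42 ± 0.16, adjusted p = 4.1e-05). Lce1a2 gave -1.14 and -1.28 (mean -1.21 ± 0.09, adjusted p = 3.9e-05), with a Cy5 signal above background on 1 array. Lce1b fell the least, at -0.70 and -0.60 (mean -0.65 ± 0.07, adjusted p = 0.000189), and its other probe was at -1.01 ± 0.06.

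Lce1h went the other way. Its log2 ratio was 0.72 and 0.88, a mean of 0.80 ± 0.12 or 1.74-fold (adjusted p = 0.000137), and its brightness rose from 12.20 and 11.99 in the wild type channel to 12.91 and 12.87. Under spike-in scaling Lce1h is at 0.04 and no longer passes, while the 6 lower Lce genes stay lower. A further 7 tested Lce genes, which carry clone names in the files and so fall outside the rule, were looked at after their values were seen. Lce1g (0.94 ± 0.15, 0.18 under spike-in scaling), Lce1i (0.64 ± 0.14, -0.12 under spike-in scaling) and Lce1e (0.25 ± 0.15, -0.50 under spike-in scaling) rose. Lce1f (-1.35 ± 0.54), Lce3f (-1.15 ± 0.03) and Lce1c (at least 2.07-fold lower, with its Cy5 spots not well above background) fell, and Lce1l was at 0.01 ± 0.10 and did not pass. Together, 9 of 14 tested Lce genes fell and 4 rose. Lce1g, Lce1h and Lce1i are consecutive among the ranked genes of the locus.

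Sequences upstream of Lce1d and Lce1h are shown because these relatives moved in opposite directions. Both lie on the minus strand of GRCm38.p6, Lce1d at chr3:92687211-92687460 and Lce1h at chr3:92765066-92765315, with the TATAAA of Lce1d in capitals.
Lce1d: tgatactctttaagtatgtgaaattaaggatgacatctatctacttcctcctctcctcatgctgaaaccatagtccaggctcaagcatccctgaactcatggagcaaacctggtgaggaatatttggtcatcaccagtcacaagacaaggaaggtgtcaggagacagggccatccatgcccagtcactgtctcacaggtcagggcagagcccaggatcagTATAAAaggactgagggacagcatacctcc
Lce1h: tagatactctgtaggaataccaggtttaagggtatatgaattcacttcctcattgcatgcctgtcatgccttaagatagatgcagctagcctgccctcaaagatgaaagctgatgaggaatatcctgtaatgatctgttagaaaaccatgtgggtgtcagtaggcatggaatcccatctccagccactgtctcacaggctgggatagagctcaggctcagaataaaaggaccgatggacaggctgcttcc
Neither window holds the AP-1 word, and Lce1h does not hold TATAAA. Lce1a1, Lce1a2, Lce1b and Lce3c, which fell, do not hold TATAAA either. Among the Lce members only Lce1d and Lce1m hold it, and both fell, so too few hold the word to compare it with direction. Lce1d and Lce1h were identical in 68.0% of aligned columns. Lce1h shared 84.5% with Lce1g and 81.3% with Lce1i, while Lce1d shared 74.9% with Lce1a2 and 73.5% with Lce1a1. Lce1h also shared 70.6% with Lce1c, which fell, and Lce1d shared only 53.9% with Lce1m, which fell too.

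The fused-type genes encode long proteins that pair a calcium-binding S100 domain with repeats. Of these, 3 could be tested and fell, but Rptn passed the brightness filter through the Cy3 channel alone. Flg, the source of filaggrin, was at -1.60 and -2.69 (mean -2.14 ± 0.77, 4.42-fold, adjusted p = 0.00043). Tchh, which encodes trichohyalin of the hair follicle's inner root sheath, was at -1.23 and -1.15 (mean -1.19 ± 0.05, 2.28-fold, adjusted p = 3.4e-05) on its brighter probe, and its other probe was too dim to test. Rptn, which encodes repetin, was at -0.69 and -0.71, which with no Cy5 signal well above background amounts to at least 1.63-fold lower (adjusted p = 0.000121). Hrnr and Tchhl1 were too dim for a change to be measured.

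The S100a genes moved both ways, with 33.3% lower and 58.3% higher, against 28.3% and 33% of all genes. Of 12 tested, 7 rose, 4 fell and 1 did not pass (10 and 2 under median centring, 2 and 10 under spike-in scaling), and the median log2 ratio was 0.19 (array 1 at 0.16, array 2 at 0.17), which turns to -0.57 under spike-in scaling. S100a4, also made by fibroblasts and motile cells, was at 1.25 and 1.40 (mean 1.33 ± 0.11, 2.51-fold, adjusted p = 3.4e-05). S100a8 was at 0.92 and 1.21 (mean 1.06 ± 0.21, 2.09-fold, adjusted p = 0.000124). S100a4 and S100a8 kept their direction under median centring (2.27 and 1.72) and spike-in scaling (0.57 and 0.31).

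S100a9 fell although its protein is known to pair with that of S100a8 as calprotectin, an antimicrobial complex of neutrophils and stressed keratinocytes. Its log2 ratio was -2.10 and -2.48 (mean -2.29 ± 0.27, 4.89-fold, adjusted p = 2.8e-05). Its brightness fell from 12.34 and 11.95 in the wild type channel to 10.24 and 9.47, whereas that of S100a8 rose from 11.10 and 11.38 to 12.02 and 12.59. The S100a8 and S100a9 ratios lay on opposite sides of 0 on both arrays. Of 12 markers of neutrophils and other myeloid cells, 9 were too dim to test, among them Mpo, Elane, Camp, Ngp and Ptprc. Ltf (-1.89 ± 0.47) and Lyz2 (-1.02 ± 0.08) fell, and Cd68 (0.13 ± 0.06) did not pass.

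**Figure D2:**
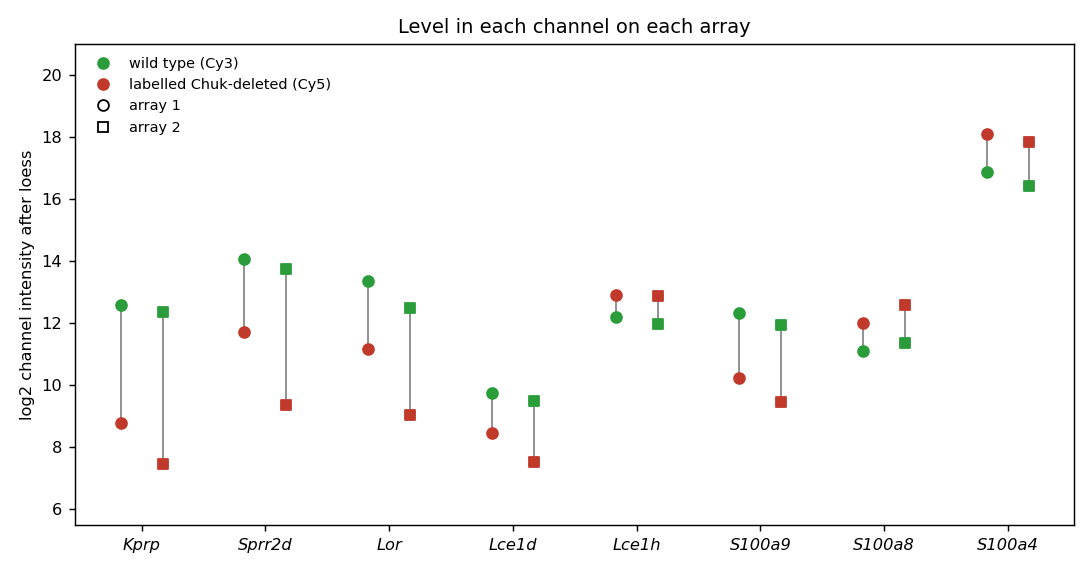
Log2 channel intensity after loess of 8 genes, wild type Cy3 in green and the Cy5 channel labelled Chuk-deleted in red, circles for array 1 and squares for array 2, to be compared within a gene only. Red lies below green on both arrays for Kprp, Sprr2d, Lor, Lce1d and S100a9 and above it for Lce1h, S100a8 and S100a4; under spike-in scaling the Lce1h difference is 0.04.

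The other S100a changes were smaller. S100a16 was at -0.64 and -1.36 (mean -1.0 ± 0.51, adjusted p = 0.00195). S100a6 was at 0.33 and 0.63 (mean 0.48 ± 0.21, adjusted p = 0.00255) and S100a13 at 0.41 and 0.49 (mean 0.45 ± 0.05, adjusted p = 0.000679), and both turn negative under spike-in scaling (-0.28 and -0.31). S100a14 (-0.29 and -0.33, mean -0.31 ± 0.03, adjusted p = 0.00269) and S100a11 (-0.10 and -0.33, mean -0.21 ± 0.16, adjusted p = 0.0371) fell, but turn positive under median centring (0.53 and 0.66). S100a10, the partner of annexin A2, S100a7a and S100a1 rose by 0.19 to 0.21 and are at -0.57 to -0.55 under spike-in scaling, and S100a3 (-0.14 ± 0.02, adjusted p = 0.0594) did not pass. With the software's processed signals the calls of S100a6 (adjusted p = 0.0804), S100a11 (0.0588), S100a7a (0.0644), S100a1 (0.105) and S100a10 (0.15) were lost. S100a4, S100a8, S100a9 and S100a16 kept direction under both scalings, and direction and call with the processed signals.

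Markers of fibroblasts, cells known to make S100a4 and S100a6, were looked at beside these values. Of 13 tested, 11 rose, Dcn fell and Lum did not pass, where 33% of all genes rose and 28.3% fell. The median of these markers was 0.84 (0.08 under spike-in scaling, where 5 rose and 4 fell). Their summed log2 level was 17.77 and 16.74 in the wild type channel and 18.77 and 18.04 in the other, and none was at background. Their part in the S100a values was not tested. Of 8 melanocyte markers, 7 fell, against 28.3% of all genes, and Kit did not pass (5 fell and 2 rose under median centring). They had a median of -0.86 and summed log2 levels of 15.90 and 15.27 against 14.66 and 13.82. The 12 keratinocyte markers had a median of -0.01 and summed log2 levels of 19.70 and 19.09 against 20.27 and 19.69. That median covers opposite moves. Itgb4, Col17a1, Trp63, Itga6, Krt14 and Krt5 rose, by 1.57 down to 0.23. Dsp, Dsg3, Cdh1, Krt1, Krt15 and Krt10 fell, from -0.91 to -0.25. Under median centring 8 rose and 1 fell, and under spike-in scaling 2 rose and 8 fell.

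**Figure D3:**
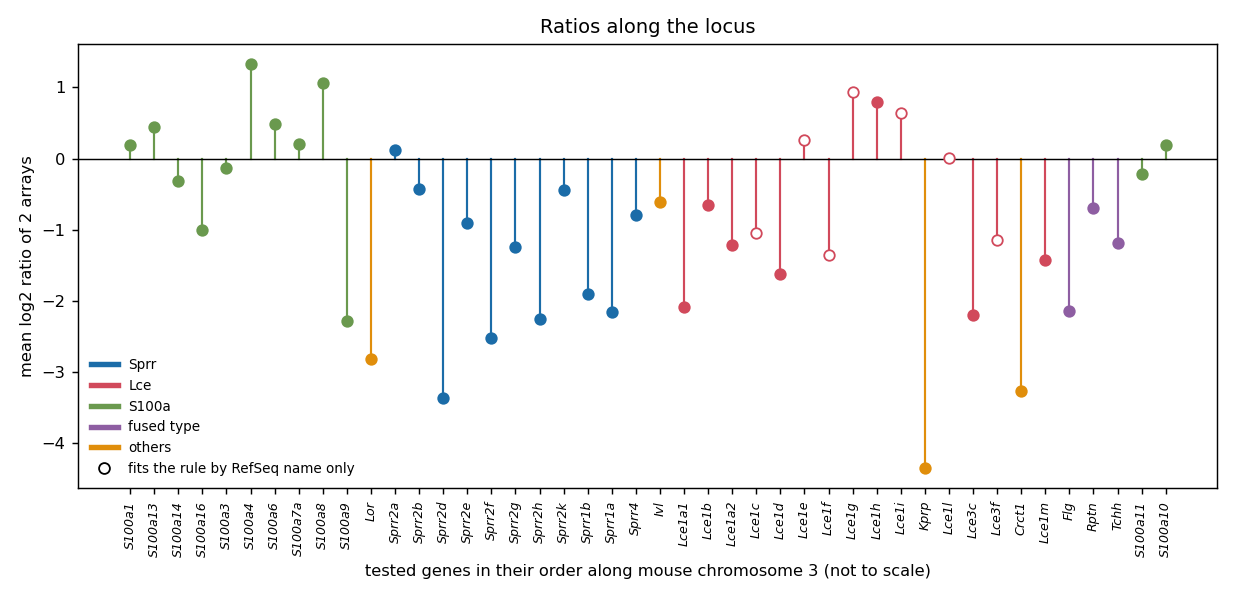
Mean log2 ratio over both arrays of 44 tested genes in their order along chromosome 3, evenly spaced and not to scale, coloured by subfamily, with open circles for Lce genes outside the name rule. From Lor to Tchh 25 of 32 genes fell, and from S100a1 to S100a9 6 of 10 rose, 2 of them (S100a4 and S100a8) also under spike-in scaling. Of all genes tested, 28.3% fell and 33% rose.

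With the Lce genes of RefSeq name included, 44 tested genes could be ordered along the chromosome. The shares of all genes tested were 28.3% lower and 33% higher. In the stretch from S100a1 to S100a9, 6 of 10 rose and 3 fell, S100a14, S100a16 and S100a9. In the stretch from Lor to Tchh, 25 of 32 fell, and the 4 that rose were Lce1e, Lce1g, Lce1h and Lce1i, of which Lce1e and Lce1i turn negative under spike-in scaling. S100a9 (-2.29) and Lor (-2.82) are next to each other among the ranked genes, as are S100a8 (1.06) and S100a9. Kprp (-4.35) lies next to Lce1i (0.64). At the far end S100a11 (-0.21) and S100a10 (0.19), both of which flip under some scaling, follow Tchh.

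Array 2 showed the larger falls. Of the 26 lower members, 23 (88.5%) were lower on array 2 than on array 1, against 63.6% of all 3888 lower genes. The SD of the lower members had a median of 0.38, against 0.057 for all lower genes. Only 441 of all genes tested were at least 2-fold lower on both arrays, so these figures compare changes of unlike size. Envelope and cornification genes outside the complex also fell further on array 2 (median -1.44 on array 1 and -2.40 on array 2). The larger fall on array 2 is therefore not particular to the members. The widest gaps between the arrays were those of Crct1 (-2.05 against -4.49), Sprr2h (-1.10 against -3.40) and Sprr2d (-2.32 against -4.40). On the other side, Rptn (-0.69 and -0.71), S100a14 (-0.29 and -0.33) and Tchh (-1.23 and -1.15) were nearly the same on both. On array 1 alone, 17 members were at least 2-fold lower, and on array 2 alone 20.

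**Figure D4:**
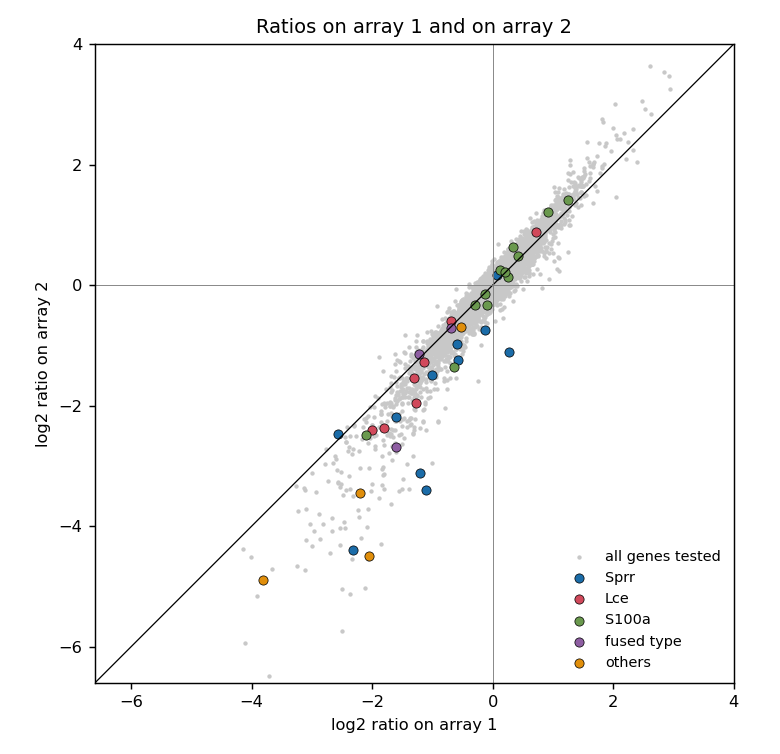
Log2 ratio on array 1 (x axis) against array 2 (y axis) for all 13758 genes tested (grey) and the members by subfamily; the diagonal marks equal ratios. Of the 26 lower members, 23 lie below the diagonal, Crct1 (-2.05 and -4.49) and Sprr2h (-1.10 and -3.40) far below it.

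Words bound by known factors were counted in the 250 bases before the start, on both strands. Of the 41 members, 36 had a promoter in the RefSeq table (GRCm38.p6), and any start counted where a gene had several. Crct1, Kprp, S100a10, S100a14 and Sprr2g had none there. The AP-1 word TGANTCA was in 15 of 36 members (41.7%) and in 6.75% of all 32807 promoters. It was in 13 of the 22 members that fell and 0 of the 7 that rose. Besides Lor and 5 Sprr2 genes, those that fell were Sprr1a, Sprr1b, Ivl, Flg, Rptn, S100a11 and S100a16. The 7 that rose were S100a genes and Lce1h. No Lce member holds the AP-1 word, although 6 of the 7 fell, so its split by direction is also one by subfamily. TATAAA was in 19 members (52.8%) and 12.4% of all promoters, in 13 of the 22 that fell and in S100a4 and S100a8 among those that rose. The Sprr2 promoters are related in sequence and are not separate observations.

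Another 4 words were searched. CACCC, bound by KLF factors, was in 52.8% of members and 52% of all promoters, and the NF-kB word (GGG and CC with any 5 bases between) in 63.9% and 45.8%. TTGCNNAA, bound by C/EBP factors, was in Flg, Hrnr and S100a9 (8.33%, against 9.57% of all), and AACCNGTT, bound by GRHL factors, in Rptn, S100a3 and S100a9 (8.33%, against 1.78%). A match is only a match of letters and shows no binding.

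Genes of known factors that act on the complex were split. Of 24 tested from a list of 27, 13 fell, 5 rose and 6 did not pass, where 28.3% of all genes fell and 33% rose. Their median log2 ratio was -0.26. Under median centring 6 fell and 13 rose (median 0.41), against 7.25% and 74.7% of all genes. Under spike-in scaling 22 of 24 fell and none rose (median -1.02), near the share of all genes under that scaling, 91%. Grhl1 (-2.88 and -3.81, mean -3.34 ± 0.65, adjusted p = 6.3e-05) and Zfp750 (-2.53 and -3.35, mean -2.94 ± 0.58, adjusted p = 6.5e-05), both drivers of late differentiation, fell. Klf4, which drives barrier genes, was at -0.65 and -0.67 (mean -0.66 ± 0.02, adjusted p = 0.000147), and turns to 0.15 under median centring. Trp63, the factor of basal keratinocytes, rose, at 0.81 and 1.0 (mean 0.90 ± 0.13, adjusted p = 0.000109), and is at 0.14 under spike-in scaling. The AP-1 genes did not move as one. Jund (-0.66 ± 0.09) and Fosl2 (-0.56 ± 0.09) fell, but are at 0.11 and 0.05 under median centring. Jun rose (0.24 ± 0.10, -0.52 under spike-in scaling), while Junb (-0.14 ± 0.19), Fos (-0.03 ± 0.01) and Fosl1 (0.08 ± 0.16) did not pass.

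Envelope and cornification genes outside the complex were mostly lower as well. Of 18 tested, 17 fell and 1 rose, against 28.3% and 33% of all genes, and the median log2 ratio was -1.95 (array 1 at -1.44, array 2 at -2.40). Krt1 and Dsg1a passed the brightness filter through the Cy3 channel alone and Dsc1 stood above background in Cy5 on 1 array, so their low ratios were selected for. Under median centring 16 fell and 2 rose, with Krt10 turning from -0.25 to 0.29. Klk7, a protease of corneocyte shedding, was at -3.71 and -6.50 (mean -5.10 ± 1.97, adjusted p = 0.000525). Tgm1, the transglutaminase that cross-links loricrin and the Sprr proteins, was at -2.31 and -3.50 (mean -2.90 ± 0.84, adjusted p = 0.00019). Cnfn (-3.25 ± 1.12) and Asprv1, the protease of profilaggrin (-3.75 ± 1.95), fell as well. Tgm5, another transglutaminase, rose (0.49 ± 0.07, -0.27 under spike-in scaling). Beside the Lce genes above, a list of 8 names of neighbours that the name rule leaves out had 6 names on the array. Of these, 3 were too dim (Flg2, Lelp1 and Smcp) and 3 fell, namely Prr9 (-2.74 ± 0.21, with Cy5 above background on 1 array), Pglyrp3 (-1.82 ± 0.60) and 2310050C09Rik (-0.53 ± 0.02).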

How the data were processed

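RNA of keratinocytes labelled wild type (Cy3) and Chuk-deleted (Cy5) was hybridised to 2 arrays of 1 slide, scanned once. The deposited spot intensities (mean signal, median local background) were written by Feature Extraction 9.1.3.1 and are uncorrected, per the file headers. They come with processed intensities, a log10 ratio of Cy5 over Cy3 with a p-value from the software's error model, and flags, per the file headers. The deposited value table equalled that log10 ratio to within 0.005, with a median of 0 in each column.

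In R 4.3.3 with limma 3.58.1 (tables read with the data.table package, version 1.17.8), background was corrected by normexp (offset 50) and log2 ratios normalised by loess. Outlier spots (51 and 18) were left out. A probe was tested if each array showed it well above background in 1 channel or both; the 23540 such probes were fitted by lmFit and eBayes (1 residual and 5.14 prior degrees of freedom) against a ratio of 0 (two-sided), and p-values were adjusted over all of them by Benjamini-Hochberg, with a threshold of 0.05. The brightest tested probe stood for a gene; in 542 of 5529 genes with several, probes were called in opposite directions. Names came from the RefSeq table of GRCm38.p6 for 16148 tested probes by accession and 4722 by symbol or synonym; 629 kept the file's name and 2041 had none. No member probe was saturated. The number of arrays limits the precision. A bound, "at least N-fold", divides the mean of the bright channel by the dim signal or, where larger, by the smallest signal called well above background; with no dye swap it is open to dye bias. The fit was tested on simulated data with independent arrays and no dye effect, so that test does not bear on dye bias or shared RNA.

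Every member may be named. Values on each array were given for fused-type and other members, for the 6 largest called changes of each of the Sprr, Lce and S100a genes, and for members called against most of their subfamily or with probes that disagree. The members and lists were chosen with earlier results of these data known. Alternatives covered background, scaling, filter, probe, replicate, call rule and source.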

Additional observations from a re-analysis of the deposited data

How the results depend on the processing

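The count of members that fell (26) and rose (8) was recomputed with 1 choice changed at a time, with some exceptions. Leaving out a replicate also replaced the limma call by the 2-fold rule. The software's processed signals and the deposited value table replaced background correction and loess together. With the software's processed signals 23 fell and 4 rose, the same as with the deposited value table. Median centring in place of loess moved the median of all genes by 0.53 and gave 23 lower and 13 higher, with 998 and 10271 of all genes. Spike-in scaling gave 34 and 2, with 12516 and 281 of all genes. By the software's p under 0.01 on both arrays 23 fell and 3 rose, with 1264 and 1242 of all genes. The 2-fold rule gave 17 and 1 (441 and 206 of all genes), and by it Chuk (0.74) no longer passed. Without either replicate, by 2-fold on the array left, 17 to 20 members were lower and 1 to 2 higher, with 463 to 581 and 225 to 338 of all genes, and the S100a median was 0.16 to 0.17.

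Subfamily medians were -1.95 (Sprr), -2.32 (Lce), 0.16 (S100a) and -2.43 (fused type) with processed signals and with the value table, and -0.84, -1.14, 0.71 and -0.81 under median centring. Under spike-in scaling they were -2.01, -2.18, -0.57 and -1.95, and the Chuk check was at -0.020. The fused-type median was -0.70 with no filter and -1.67 with both channels above background. With median centring set back to the loess median, chosen after seeing the data, as were the RefSeq names, it was -1.26 and that of S100a 0.27. With RefSeq names the Lce median was -1.10.

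Single genes that changed sign under median centring were S100a11 (0.66), S100a14 (0.53), S100a3 (0.27), Sprr2b (0.24) and Sprr2k (0.16), and once recentred S100a11 (0.21) and S100a14 (0.083). Under spike-in scaling they were S100a1 (-0.57), S100a10 (-0.57), S100a13 (-0.31), S100a6 (-0.28), S100a7a (-0.55) and Sprr2a (-0.64), and with the mean of a gene's probes Sprr2a (-0.21). Apart from the constructed shift in scaling, the cause was not tested. Of 403 values of single genes under alternatives that use both arrays, 343 kept direction and call, 40 lost the call, 6 gained it and 14 changed sign. Direction could not change where only the call rule or the filter was altered, since the same ratios are reused there. The mean of a gene's probes alters only genes with several probes, and the value table nearly repeats the processed signals. The 403 values are therefore not separate checks. Calls under median centring and spike-in scaling, which are among these, rest on the size of the mean. Dim Cy5 signals limit Sprr2f, Sprr4, Lce1a2 and Rptn. Each ratio already pairs the wild type and Chuk-deleted channels of the same array. No further pairing was possible because the labels give 1 group. A block for slide or scan was not run, since both arrays share them.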
